A study of Mus musculus with 8 samples.

Results

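The clustered replication-type histone genes are the 70 genes, of 55421 in the count table, whose symbol begins with Hist1h, Hist2h, Hist3h or Hist4h. The rule that picks them uses the name and no measured value. The 70 genes encode linker histone H1 (6 genes), H2A (20), H2B (19), H3 (12) and H4 (13), and 3 of the 70 are annotated as pseudogenes. In the GENCODE M21 annotation of the mouse assembly GRCm38, 55 lie in a pair of stretches of the Hist1 locus on chromosome 13, with 24 in the stretch nearer the centromere (proximal) and 31 in the other (distal). Another 10 lie in the Hist2 locus on chromosome 3, 3 in the Hist3 locus on chromosome 11 and 1 in the Hist4 locus on chromosome 6. The remaining gene, Hist1h2al, is a pseudogene on chromosome 13 outside the clusters.

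Replication-type histone genes supply the bulk of histone protein during S phase. Most of their mRNAs are not polyadenylated but end in a conserved stem-loop bound by SLBP, and a library made by oligo-dT capture therefore holds little of them, mainly those transcripts that read past the stem-loop to a poly(A) site. Such polyadenylated forms have been described in differentiated and arrested cells, and a few members of the family (Hist1h1t, Hist1h2aa and Hist1h2ba) are germline variants of meiotic and later male germ cells.

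Expression was measured by RNA-seq in 8 libraries from primary cultures of mouse spermatogonia (SSC culture) of the background C57BL/6XDBA/2, which carried either a Stra8 or a Spo11 mutation. The 4 groups of 2 libraries were Stra8KO with vehicle (Stra8KO Veh), Stra8KO with nutrient-restricted medium and retinoic acid (Stra8KO NRRA), Spo11KO with vehicle (Spo11KO Veh) and Spo11KO with the same restricted medium and retinoic acid (Spo11KO NRRA). Per the labels, every culture was grown with N2 supplement and with bFGF and GDNF at 10 ng/ml each. The study's list of media gives a higher GDNF concentration for the complete medium. Its NRRA medium was a small part of complete medium in a salt solution, so these supplements were diluted there too. Each NRRA comparison includes that dilution. Every culture had been started from testes of pups. All stood on feeder fibroblasts from embryos of another, outbred stock that irradiation had stopped from dividing. The study's methods describe oligo-dT capture and strand selection, whereas the labels also name another library kit, and which kit made these libraries was not settled from the sources used here. Wild-type cultures were not analysed here, so every genotype comparison sets one mutant against the other. The 2 libraries of a group were described as independent biological replicates, but whether they came from separately derived cultures was not given in the sources used here, and p-values then measure only the spread between these libraries.

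Totals ranged from 20960794 to 27038868 counts per library. Stra8, which acts downstream of retinoic acid at meiotic entry, had 2 and 0 counts (Veh) and 169 and 170 counts (NRRA) in Stra8KO, against 28 and 12 counts (Veh) and 12604 and 16191 counts (NRRA) in Spo11KO. Spo11, the nuclease of meiotic DNA breaks, had 32 and 31, 68 and 66, 72 and 75, and 148 and 127 counts in the same order, so the libraries labelled Spo11KO were not the ones with fewer Spo11 counts. Gene totals do not show whether the deleted exons were read, and they do not check that label. The libraries are bulk, so fewer cells of a type and less RNA per cell cannot be told apart in any value below. Germ cell markers (Ddx4, Dazl and 6 others) summed to 729 to 900 counts per 1000000 (CPM) in Stra8KO and to 1476 to 1718 in Spo11KO. The 16 fibroblast markers summed to 28030 to 44460 CPM in Stra8KO and to 14670 to 23080 CPM in Spo11KO, and no marker of either list was at 0 in all libraries.

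The stem-loop that ends a mature replication-type mRNA was searched for in the first 150 bases after the stop codon of the 52 members whose GENCODE transcript runs far enough past that codon to hold it, and it was found in 46. Up to 2 mismatches to the consensus were allowed, and those found had none. These sequences are shown because the stem-loop, and how far the gene model runs past it, bears on what a library made by oligo-dT capture can count. They are taken from GENCODE M21 transcripts (GRCm38), 5′ to 3′ on the strand of the gene, with the 16 bases of the stem-loop in capitals. The coordinates span those 16 bases.
Hist1h1c (chr13:23739512-23739527, plus strand): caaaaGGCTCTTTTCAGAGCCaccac
Hist1h3a (chr13:23761890-23761905, minus strand): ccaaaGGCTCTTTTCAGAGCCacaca
Hist1h3c (chr13:23745047-23745062, minus strand): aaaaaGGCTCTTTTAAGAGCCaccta
Hist1h1t (chr13:23696525-23696540, plus strand): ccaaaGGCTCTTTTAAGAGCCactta
Hist1h4h (chr13:23531458-23531473, plus strand): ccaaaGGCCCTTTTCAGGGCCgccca
Hist1h4i (chr13:22040966-22040981, minus strand): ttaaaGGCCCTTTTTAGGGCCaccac

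The form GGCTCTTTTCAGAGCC was shared by 26 members of the classes H1, H2A, H2B and H3, and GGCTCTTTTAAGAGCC by 6 members of H1, H2B and H3. The H4 genes carried other stems, with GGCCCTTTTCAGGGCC in 7 of them. Over the whole family, 28 gene models were extended, meaning that they are spliced or run more than 100 bases past the stem-loop or, where none was found, more than 100 bases past the stretch searched. Another 22 models ended at the stem-loop or within 100 bases of it, 17 ended before it, and the 3 pseudogenes were kept apart. The model of Hist1h1c ran 840 bases past the stem-loop and that of Hist1h1d 4884 bases, whereas those of Hist1h4h and Hist1h3a stopped 46 and 37 bases after it. Reads are placed by gene model, so transcripts that read past a short model go uncounted beyond its end.

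The members are alike in sequence, and the handling of reads that match several places was not given in the sources used here. Of 100-base windows of a member's transcripts, a median of 37.8% also occurred in another gene, and in 29 members more than 50% did. Hist2h2aa1, Hist2h2aa2, Hist2h2bb, Hist2h3b and Hist2h3c1 had no window of their own. Levels of such members are uncertain. A total of 26 members overlapped another annotated gene.

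Upstream sequence also differed by class. RefSeq (GRCm38.p6) gave a promoter, from 250 bases before to 50 bases after the start, for 62 members. The octamer ATTTGCAT, the site that octamer-binding POU factors read, stood on either strand in 7 of 18 H2A and 6 of 16 H2B promoters and in none of 6 H1, 10 H3 or 12 H4 promoters, against 1.74% of all 32851 promoters. The box CCAAT was found in every H1, H2A, H2B and H3 promoter and in 3 of 12 H4 promoters (37.4% of all promoters), and TATAAA in 35 of 62 members (13.6% of all promoters). A match describes letters and not an occupied site. The 150 bases before the start are shown for 3 members, the H1 gene with the highest level and a pair of H2B genes that both carry the octamer but stood on opposite sides in the genotype comparison. The capitals mark ATTTGCAT, CCAAT and TATAAA on either strand.
Hist1h1c (chr13:23738657-23738806, plus strand): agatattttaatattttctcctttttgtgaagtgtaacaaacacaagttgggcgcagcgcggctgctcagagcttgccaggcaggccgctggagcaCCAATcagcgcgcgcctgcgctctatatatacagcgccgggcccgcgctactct
Hist1h2bg (chr13:23571250-23571399, plus strand): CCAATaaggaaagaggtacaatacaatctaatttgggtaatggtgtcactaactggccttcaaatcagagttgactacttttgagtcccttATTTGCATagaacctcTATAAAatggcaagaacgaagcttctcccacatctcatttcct
Hist1h2bm (chr13:21721894-21722043, plus strand): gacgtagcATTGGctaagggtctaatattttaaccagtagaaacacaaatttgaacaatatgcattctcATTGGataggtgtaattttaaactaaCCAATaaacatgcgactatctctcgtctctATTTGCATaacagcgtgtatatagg

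Histone transcripts of the clusters were scarce and were dominated by a few genes. All 70 members together took 259 and 259 counts in 1000000 counts of the library (Veh) and 319 and 328 (NRRA) in Stra8KO, against 160 and 167 (Veh) and 199 and 189 (NRRA) in Spo11KO. The linker histone gene Hist1h1c and the H2B gene Hist1h2bc held between 41.1% and 56.5% of these counts, and 10 genes held between 72.7% and 84.6%. After TMM scaling, which is used for every level from here on, the summed level was 274 and 273 CPM (Veh) and 339 and 347 CPM (NRRA) in Stra8KO, against 156 and 164 CPM (Veh) and 181 and 175 CPM (NRRA) in Spo11KO. Every Stra8KO library lay above every Spo11KO library, and within each genotype both NRRA libraries lay above both Veh libraries.

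**Figure D1:**
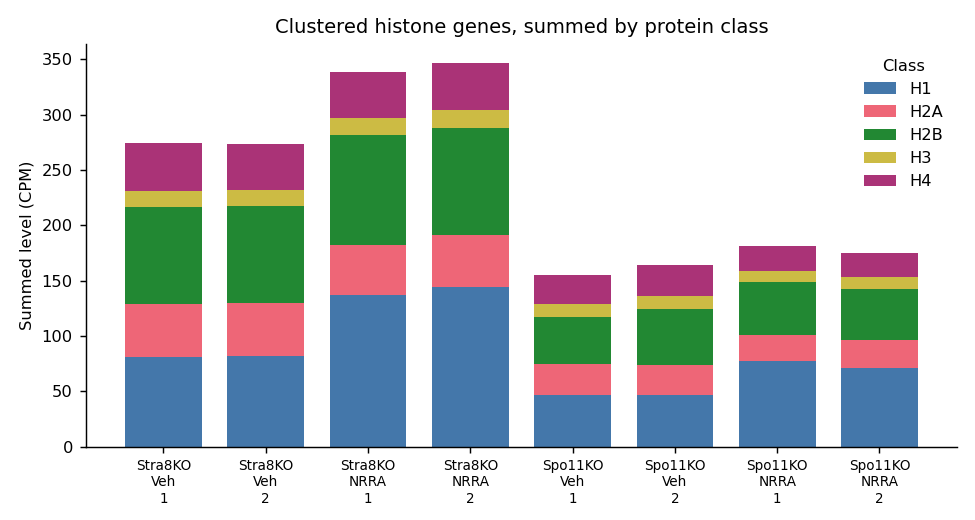
Summed level in CPM (vertical axis) of the clustered histone genes in each of the 8 libraries (horizontal axis), stacked by protein class. The H1 segment grew from 80.7 and 81.9 CPM to 137 and 144 CPM with NRRA in Stra8KO and from 46.4 and 46.5 CPM to 77.5 and 71.0 CPM in Spo11KO. The smaller H3 segment went from 14.13 and 14.25 CPM to 15.25 and 15.92 CPM with NRRA in Stra8KO. In Spo11KO it went from 11.75 and 12.53 CPM to 10.19 and 10.65 CPM.

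The classes did not move together with NRRA. The H1 sum went from 80.7 and 81.9 CPM to 137 and 144 CPM in Stra8KO and from 46.4 and 46.5 CPM to 77.5 and 71.0 CPM in Spo11KO, nearly all of it in Hist1h1c. The H2B sum went from 88.0 and 88.1 CPM to 98.9 and 97.4 CPM in Stra8KO, and its Spo11KO libraries overlapped. The H2A sum was 28.6 and 27.4 CPM in Spo11KO Veh and 23.7 and 25.3 CPM in Spo11KO NRRA, and the H4 sum went in that genotype from 26.4 and 27.3 CPM to 23.0 and 21.5 CPM. No test was run on these sums, which are descriptions.

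By the filter on low counts, 47 of the 70 members entered the tests. The other 23 took between 1.47 and 4.35 CPM together in a library, 8 of them had at most 3 counts in every library, and Hist2h2aa1 and Hist2h3c1 had no count. Per kb of exon, the highest members were the H2A pseudogene Hist1h2al with a mean of 70.0 CPM per kb, Hist1h1c with 45.4 CPM per kb and Hist1h2bc with 44.0 CPM per kb. The H4 genes Hist1h4h (15.7 CPM per kb), Hist1h4i (14.1) and Hist1h4n (9.92) came next. The tested H3 genes reached at most 3.50 CPM per kb, in Hist2h3c2, and the median tested member had 1.00 CPM over all libraries. Hist1h2al is a processed copy outside the clusters, and 19.2% of its windows occurred in other genes.

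The germline variants were at or near the limit of detection, which is set here at 3 counts in a library. Hist1h2ba, the H2B variant of spermatogenic cells (chr13:23933773-23934156), had 1 and 3 counts (Veh) and 2 and 2 counts (NRRA) in Stra8KO, against 3 and 5 counts (Veh) and 1 and 6 counts (NRRA) in Spo11KO. Its H2A partner Hist1h2aa had 2 and 4, 2 and 0, 7 and 10, and 4 and 7 counts in the same order. Hist1h1t, the testis linker histone of meiotic cells (chr13:23695814-23696725), had 2 and 0, 3 and 2, 6 and 6, and 1 and 3 counts. In CPM the genotypes overlapped for each of these genes over the 8 libraries. Within a medium, both Stra8KO libraries were below both Spo11KO libraries for Hist1h2aa in Veh and in NRRA, and for Hist1h1t in Veh. The genotypes overlapped for Hist1h1t in NRRA and for Hist1h2ba in each medium. Within Spo11KO both Veh libraries were above both NRRA libraries for Hist1h1t and Hist1h2aa. None of the 3 passed the filter. In an edgeR fit without the filter none was called in any of the 5 comparisons, with a smallest adjusted p of 0.15, and the log2 change with NRRA of Hist1h1t in Spo11KO was -1.71 ± 1.05.

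NRRA was compared with Veh in each genotype to ask which histone genes respond to restricted medium with retinoic acid. In both genotypes Hist1h1c and the H2A gene Hist1h2ad were called higher and the H4 gene Hist1h4h was called lower, where 13.3% and 13.7% of all tested genes were called higher and lower in both. In Stra8KO the calls were 4 members higher (Hist1h1c, Hist1h2ad, Hist1h3b and Hist1h4n) and 1 lower (Hist1h4h) among 47 tested, with 21.6% of all 20588 tested genes higher and 20.2% lower. In Spo11KO 2 members were higher and 6 lower (Hist1h2ae, Hist1h2ak, Hist1h2bm, Hist1h3c, Hist1h4h and Hist1h4i), with 24.5% of all genes higher and 25.5% lower. The median log2 fold change of the tested members was 0.18 in Stra8KO and -0.15 in Spo11KO, beside 0.01 over all genes in each. Scaled by library totals alone, the all-gene median in Spo11KO shifted to 0.10 and its calls from 5038 higher and 5241 lower to 6492 and 4033. Calls are at an adjusted p under 0.05 from the quasi-likelihood test of edgeR with Benjamini-Hochberg adjustment over all tested genes.

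Hist1h1c, the H1.2 linker histone gene (chr13:23738808-23740367), had 65.5 and 63.6 CPM (Veh) and 118 and 124 CPM (NRRA) in Stra8KO, against 35.6 and 33.5 CPM (Veh) and 65.4 and 59.5 CPM (NRRA) in Spo11KO. The NRRA libraries lay above the Veh libraries in each genotype with no overlap. The log2 fold change was 0.91 ± 0.05 (SE, n = 2 against 2, edgeR adjusted p = 3.7e-20) in Stra8KO and 0.85 ± 0.06 (edgeR adjusted p = 1.9e-17) in Spo11KO. The difference between these changes was 0.06 ± 0.08 (log2), an interval of -0.10 to 0.22 at 2 SE on either side, and was not called. The other H1 genes were not called with NRRA in either genotype. Hist1h1d (H1.3), the next most abundant, had log2 fold changes of 0.16 ± 0.12 and 0.20 ± 0.14, and Hist1h1e (H1.4), which overlaps Hist1h2be, had 0.18 ± 0.22 and -0.18 ± 0.24.

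**Figure D2:**
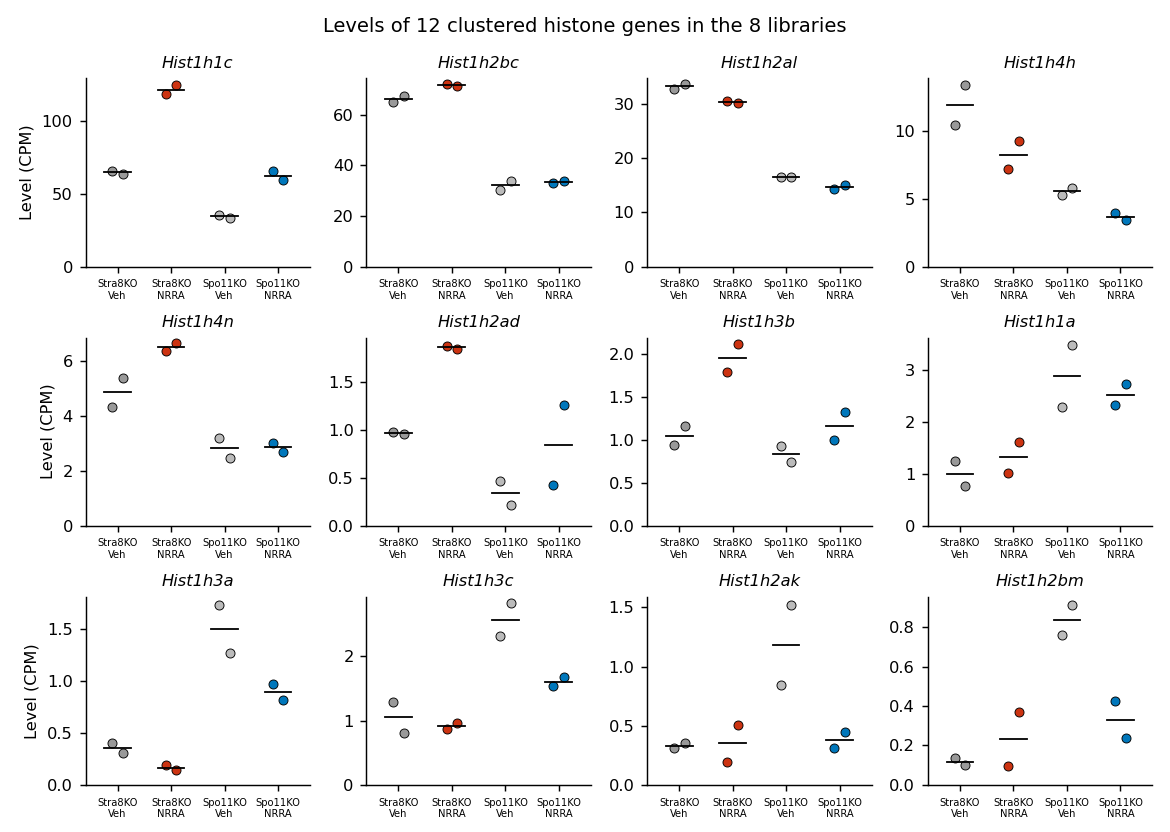
Level in CPM (vertical axes, starting at 0) of 12 clustered histone genes in the 4 groups (horizontal axes), with each library as a point and the group mean as a bar. Hist1h1c was higher with NRRA in both genotypes, Hist1h4h was lower with NRRA in both, and the bottom row and Hist1h1a show genes with their highest group means in Spo11KO Veh.

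Hist1h4h, an H4 gene whose model ends close after the stem-loop, went the other way. It had 10.5 and 13.4 CPM (Veh) and 7.19 and 9.28 CPM (NRRA) in Stra8KO, against 5.31 and 5.83 CPM (Veh) and 3.94 and 3.45 CPM (NRRA) in Spo11KO. Both NRRA libraries were below both Veh libraries in each genotype. It fell by 0.53 ± 0.14 on the log2 scale in Stra8KO (edgeR adjusted p = 0.0015) and by 0.60 ± 0.17 in Spo11KO (edgeR adjusted p = 0.0025). In Stra8KO the call was lost without Veh replicate 2 (log2 -0.34) and without NRRA replicate 1 (log2 -0.36).

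Hist1h2ad was a small gene in these libraries, and its call in Spo11KO rested on single libraries. It had 22 and 19 counts (Veh) and 39 and 40 counts (NRRA) in Stra8KO, against 11 and 5 counts (Veh) and 11 and 37 counts (NRRA) in Spo11KO. The groups did not overlap in CPM in Stra8KO (0.984 and 0.957 CPM against 1.88 and 1.85 CPM), whereas in Spo11KO the levels of 0.463 and 0.218 CPM overlapped with 0.424 and 1.26 CPM. The log2 fold changes were 0.94 ± 0.37 (edgeR adjusted p = 0.035) and 1.32 ± 0.48 (edgeR adjusted p = 0.019). Without Spo11KO NRRA replicate 2 the second value was 0.29, and the call was lost then and without Spo11KO Veh replicate 2. In Stra8KO the call was lost without any 1 of the 4 libraries, with log2 values between 0.92 and 0.96.

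The H3 gene Hist1h3b and the H4 gene Hist1h4n were called in Stra8KO and not in Spo11KO. Hist1h3b had 0.939 and 1.16 CPM in Stra8KO Veh and 1.79 and 2.12 CPM in Stra8KO NRRA, a log2 fold change of 0.90 ± 0.32 (edgeR adjusted p = 0.018). In Spo11KO its log2 fold change was 0.49 ± 0.34. Hist1h4n, 80.7% of whose windows occur in other genes, had 4.34 and 5.39 CPM in Stra8KO Veh and 6.37 and 6.65 CPM in Stra8KO NRRA, a log2 fold change of 0.43 ± 0.17 (edgeR adjusted p = 0.038), against 0.00 in Spo11KO. The difference between genotypes was not called for either gene, with 0.41 ± 0.47 and 0.43 ± 0.26. The call of Hist1h3b was lost without Stra8KO Veh replicate 1 or NRRA replicate 2, and that of Hist1h4n without Stra8KO Veh replicate 1 or either NRRA library.

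In Spo11KO 5 more core histone genes were called lower with NRRA, and none of them was called in Stra8KO. The H2A gene Hist1h2ak had 20 and 35 counts (Veh) against 8 and 13 (NRRA), a log2 fold change of -1.62 ± 0.45 (edgeR adjusted p = 0.0024). The H2B gene Hist1h2bm had 18 and 21 counts against 11 and 7, a log2 fold change of -1.34 ± 0.51 (edgeR adjusted p = 0.025), and the H2A gene Hist1h2ae had 26 and 31 counts against 10 and 18, with -1.26 ± 0.40. In each of these 3 genes both NRRA libraries were below both Veh libraries. The H3 gene Hist1h3c fell by 0.67 ± 0.26 on the log2 scale and the H4 gene Hist1h4i, at 8.46 and 8.48 CPM in Veh and 6.67 and 6.14 CPM in NRRA, fell by 0.41 ± 0.13. The corresponding Stra8KO values lay between -0.26 (Hist1h2ae) and 0.96 (Hist1h2bm), with SEs of 0.12 to 0.85. With DESeq2, Hist1h1c was the sole member called higher and Hist1h4h the sole member called lower in each genotype. Over the 39921 genes fitted, DESeq2 called 2950 higher and 3530 lower in Stra8KO, and 3713 and 4124 in Spo11KO. Without Spo11KO Veh replicate 2 the number called lower in Spo11KO was 2 in place of 6. Hist1h2ae and Hist1h3c also lost their calls without Spo11KO NRRA replicate 1, Hist1h3c, Hist1h2bm and Hist1h4i without NRRA replicate 2, and Hist1h2bm without Veh replicate 1.

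**Figure D3:**
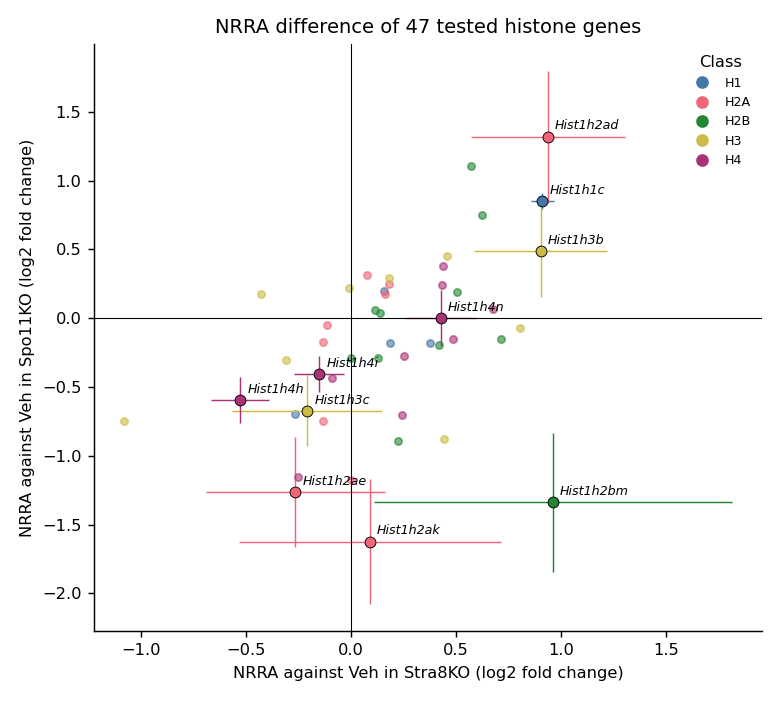
Log2 fold change of NRRA against Veh in Stra8KO (horizontal axis) and in Spo11KO (vertical axis) for the 47 tested histone genes, coloured by class. Large labelled points with SE bars are the 10 genes called in at least 1 genotype, small points are the 37 called in neither, and Hist1h1c at 0.91 and 0.85 has the narrowest bars of those labelled.

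The interaction, which is the NRRA change in Stra8KO minus that in Spo11KO, was called for 0 of 47 members by edgeR, beside 14.8% of all genes called higher and 10.3% lower. At an unadjusted p under 0.05 there were 3 members (Hist1h2ak, Hist1h2bm and Hist1h3e), all with positive values, and the smallest adjusted p was 0.074. The share of all genes at that unadjusted threshold is not given here. DESeq2 called 0 members, with 1 at an unadjusted p under 0.05, beside 1864 higher and 1445 lower of all 39921 genes fitted. Without Stra8KO NRRA replicate 1 or Spo11KO Veh replicate 1 edgeR called 2, and without Stra8KO Veh replicate 1, Stra8KO NRRA replicate 2 or Spo11KO NRRA replicate 2 it called 1. The median interaction over the tested members was 0.32 (log2), against 0.01 over all genes. In the proximal stretch of Hist1 13 of 14 tested members had a positive value, with a median of 0.74, compared with 17 of 25 and 0.10 in the distal stretch. The 2 comparisons that enter each value share no library, but all members are read from the same 8 libraries. Many members share sequence with other genes and most had few counts, so their signs are not independent. The values are descriptions.

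Markers of other cells moved with NRRA as well. Of the 16 fibroblast markers 11 were called higher and 5 lower in each genotype, with median log2 fold changes of 0.63 in Stra8KO and 0.48 in Spo11KO. Their summed level went from 28030 and 28550 CPM to 44460 and 43820 CPM in Stra8KO and from 14670 and 14810 CPM to 23080 and 22410 CPM in Spo11KO. Of the 8 germ cell markers 6 were called higher in each genotype and 1 lower in Spo11KO, with medians of 0.25 and 0.17. The 6 markers of undifferentiated spermatogonia had a median of 0.30 in Stra8KO, with 3 called higher and 2 lower, and of -2.35 in Spo11KO, with 6 called lower, and the interaction was called higher for each. Their summed level was 478 and 470 CPM (Veh) and 505 and 498 CPM (NRRA) in Stra8KO, against 1050 and 1048 CPM (Veh) and 256 and 259 CPM (NRRA) in Spo11KO. Of the 5 markers of differentiating spermatogonia 4 were called higher in Stra8KO and 5 in Spo11KO, with medians of 1.78 and 2.01. Sertoli markers summed to 45.5 and 40.4 CPM (Veh) and 28.3 and 28.8 CPM (NRRA) in Stra8KO, against 34.3 and 36.6 CPM (Veh) and 15.3 and 16.1 CPM (NRRA) in Spo11KO. Only 3 of the 6 Sertoli markers were tested, with 1 called higher and 1 lower in Stra8KO, and 0 higher and 1 lower in Spo11KO. The part of any of these cells in the histone values was not tested.

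The genotypes were compared within each medium, which asks how histone transcripts stand in Stra8KO cultures relative to Spo11KO cultures. In both media 19 members had a called higher level in Stra8KO, against 24.7% of all tested genes called higher in both. Among the 19 were Hist1h1c, Hist1h1d, Hist1h2bc, Hist1h4h, Hist1h4i and every tested Hist2 gene. Their median was near 1 log2 unit, but they were picked by these same calls, which favours large values. In Veh 20 members were called higher and 9 lower among 47, with 31.6% of all genes higher and 30.7% lower. In NRRA 24 were called higher and 4 lower, with 35.0% and 28.9% of all genes. The median log2 fold change of the members was 0.48 in Veh and 0.83 in NRRA, beside 0.00 and 0.07 over all genes. These medians depend on how low counts are handled. Taken from log2 of CPM plus 0.5, over all choices of 1 library per group, they were 0.24 to 0.39 in Veh and 0.47 to 0.60 in NRRA. Scaled by library totals the all-gene medians were -0.11 and -0.14, and in NRRA the calls over all genes moved from 7214 higher and 5956 lower to 5348 and 8183. Across the media 4 members were called lower in both (21.3% of all genes), and none was called in opposite directions. The 2 comparisons share no library, but they share the genotypes and a single fitted model. A lasting difference between the cultures would enter both. DESeq2, without the edgeR filter, fitted 68 members among 39921 genes. It called 15 members higher and 5 lower in Veh, beside 5356 and 5135 of all genes. In NRRA it called 16 members higher and 2 lower, beside 5728 and 5016 of all genes.

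The linker histones differed among themselves. Hist1h1c was higher in Stra8KO by 0.90 ± 0.06 (log2, edgeR adjusted p = 2.9e-18) in Veh and by 0.96 ± 0.05 (edgeR adjusted p = 1.0e-21) in NRRA. Hist1h1d had 10.5, 13.9, 13.5 and 13.6 CPM in the Stra8KO libraries and between 5.81 and 7.41 CPM in the Spo11KO libraries, with log2 values of 0.97 ± 0.13 and 0.93 ± 0.12. Hist1h1e was called in NRRA (0.84 ± 0.23, edgeR adjusted p = 0.0012) and had 0.47 ± 0.23 in Veh.

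Hist1h1a (H1.1) was the linker histone with the opposite sign. It had 1.25 and 0.755 CPM (Veh) and 1.01 and 1.61 CPM (NRRA) in Stra8KO, against 2.27 and 3.48 CPM (Veh) and 2.31 and 2.73 CPM (NRRA) in Spo11KO. Every Stra8KO library was below every Spo11KO library, with log2 values of -1.49 ± 0.30 (edgeR adjusted p = 2.0e-05) in Veh and -0.94 ± 0.28 (edgeR adjusted p = 0.0032) in NRRA, the second of which lost its call without Stra8KO NRRA replicate 1. Hist1h1b (H1.5) had 5 to 18 counts in Stra8KO and 5 to 13 in Spo11KO and was not called, at 0.48 ± 0.58 and 0.91 ± 0.64.

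Hist1h2bc, an H2B gene in whose spliced model no stem-loop was found, had 65.1 and 67.3 CPM (Veh) and 72.2 and 71.3 CPM (NRRA) in Stra8KO, against 30.3 and 33.9 CPM (Veh) and 33.1 and 33.6 CPM (NRRA) in Spo11KO. The genotypes did not overlap, with log2 values of 1.04 ± 0.06 (edgeR adjusted p = 3.9e-20) and 1.10 ± 0.06 (edgeR adjusted p = 1.1e-21). In contrast to Hist1h1c, its NRRA changes were 0.12 ± 0.06 in Stra8KO and 0.06 ± 0.07 in Spo11KO and were not called. The pseudogene Hist1h2al had genotype values of 1.01 ± 0.08 and 1.04 ± 0.08, from 30.2 to 33.7 CPM in Stra8KO and 14.2 to 16.6 CPM in Spo11KO.

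Of the other core histone genes, Hist1h4h was higher in Stra8KO by 1.09 ± 0.14 (log2) in Veh and 1.16 ± 0.16 in NRRA, and Hist1h4i by 0.69 ± 0.12 and 0.95 ± 0.13. The H3 genes Hist1h3d and Hist2h3c2 were higher by 1.14 ± 0.23 and 1.15 ± 0.20, and by 1.09 ± 0.19 and 1.08 ± 0.20. Hist1h2ad was higher by 1.49 ± 0.49 and 1.11 ± 0.36, the first of which lost its call without Spo11KO Veh replicate 2. Of the 5 tested Hist2 genes all were called higher in both media, with medians of 0.98 and 1.07, although Hist2h2aa2 and Hist2h2bb share all their windows with other genes. DESeq2 called neither Hist2h2bb nor Hist2h2be in either medium. With edgeR, Hist2h2bb in Veh lost its call without Stra8KO Veh replicate 1 or Spo11KO Veh replicate 1 (lowest log2 0.77), and Hist2h2be in NRRA without Spo11KO NRRA replicate 2. Over the 19 members called higher in both media, values ran from 0.69 to 1.49 in Veh and from 0.78 to 1.41 in NRRA. Among members called in 1 medium, the H3 gene Hist1h3g (1.54 ± 0.68 in Veh) rested on 8 and 16 counts against 2 and 7, and its call was lost without Stra8KO Veh replicate 2 (log2 0.87), Spo11KO Veh replicate 1 (log2 0.90) or either Stra8KO NRRA library.

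**Figure D4:**
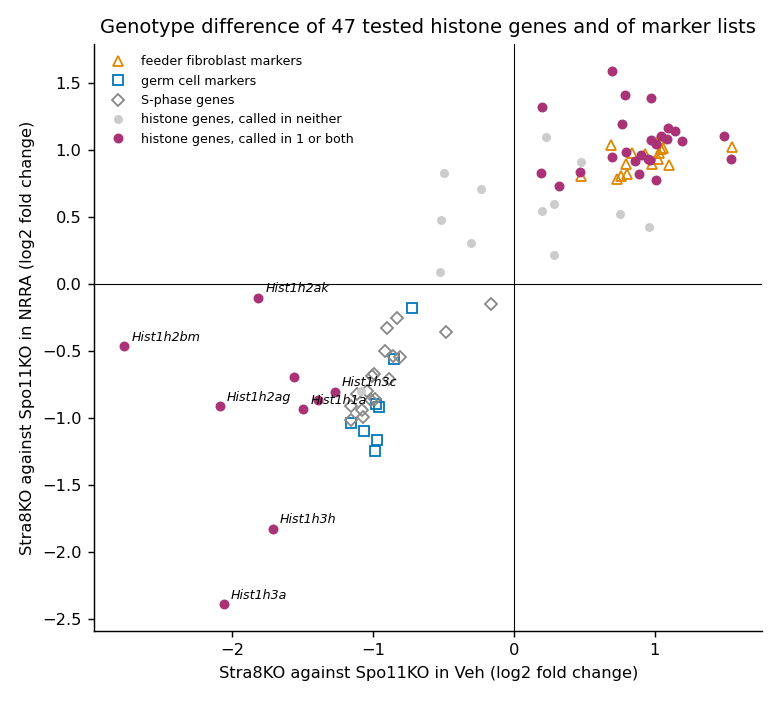
Log2 fold change of Stra8KO against Spo11KO in Veh (horizontal axis) and in NRRA (vertical axis) for the 47 tested histone genes, with markers of feeder fibroblasts, markers of germ cells and S-phase genes. The histone genes called higher sit around 1 on both axes beside the fibroblast markers, and a smaller number lies at negative values, as far as -2.76 for Hist1h2bm in Veh.

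A smaller set of members was lower in Stra8KO than in Spo11KO. In both media these were Hist1h1a and the H3 genes Hist1h3a, Hist1h3c and Hist1h3h, and in Veh also the H2A genes Hist1h2ag and Hist1h2ak, the H2B genes Hist1h2bk and Hist1h2bm and the H4 gene Hist1h4b. Hist1h3a had 9 and 6 counts (Veh) and 4 and 3 counts (NRRA) in Stra8KO, against 41 and 29 counts (Veh) and 25 and 24 counts (NRRA) in Spo11KO. No Stra8KO library reached the lowest Spo11KO library, and the log2 values were -2.06 ± 0.44 (edgeR adjusted p = 6.6e-05) in Veh and -2.39 ± 0.55 (edgeR adjusted p = 0.00017) in NRRA. Hist1h3a and Hist1h1a were the pair that DESeq2 also called lower in both media.

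Hist1h2bm had 3 and 2 counts in Stra8KO Veh against 18 and 21 in Spo11KO Veh, a log2 value of -2.76 ± 0.66 (edgeR adjusted p = 0.00030). With NRRA the counts were 2 and 8 against 11 and 7, and the groups overlapped in counts, with -0.47 ± 0.66. Hist1h2ak had 7 and 7 counts against 20 and 35 in Veh (-1.81 ± 0.50, edgeR adjusted p = 0.0014, a call lost without Spo11KO Veh replicate 2, at -1.33) and 4 and 11 against 8 and 13 in NRRA (-0.10 ± 0.58). For both genes the Spo11KO Veh libraries were the highest of the 8. Because Stra8KO Veh had at most 3 counts of Hist1h2bm per library, the size of its fold change depends on the prior count of the fit.

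With Veh, Hist1h3c had 29 and 16 counts in Stra8KO against 55 and 65 in Spo11KO, a log2 value of -1.27 ± 0.29, and -0.80 ± 0.32 in NRRA, where the call was lost without either Stra8KO library or Spo11KO NRRA replicate 2. Hist1h3h, of whose windows 92.0% occur in other genes, had 4 and 3 counts against 19 and 7 in Veh, and its value of -1.71 ± 0.67 moved to -0.86 without Spo11KO Veh replicate 1, where the call was lost, as it was without either Stra8KO Veh library. Its value in NRRA, -1.83 ± 0.62, lost its call without Stra8KO NRRA replicate 1 or Spo11KO NRRA replicate 2. Hist1h2ag (-2.09 ± 0.68) lost its call in Veh without Stra8KO Veh replicate 2 or Spo11KO Veh replicate 1, and Hist1h2bk (-1.56 ± 0.59) without Stra8KO Veh replicate 1 or either Spo11KO Veh library.

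The gene models of the members called in Veh are given as counts, with no test. Of the 47 tested members 22 had an extended model, as did 10 of the 18 not called. Of the 20 called higher, 12 had an extended model, 6 a model that ends at the stem-loop, 1 a model that ends before it, and 1 was the pseudogene Hist1h2al. Of the 9 called lower none had an extended model, 6 ended at the stem-loop and 3 before it. The 9 also had lower levels, with a median of 0.561 CPM over all libraries and at most 1.93 CPM, against 3.30 CPM and 70.8 CPM for the 20. Summed over all 28 extended models, the level was 201 to 273 CPM in Stra8KO and 107 to 140 CPM in Spo11KO. Summed over the 17 models that end before the stem-loop, it was 5.14 to 8.49 CPM in Stra8KO and 6.14 to 11.9 CPM in Spo11KO, and the genotypes overlapped.

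**Figure D5:**
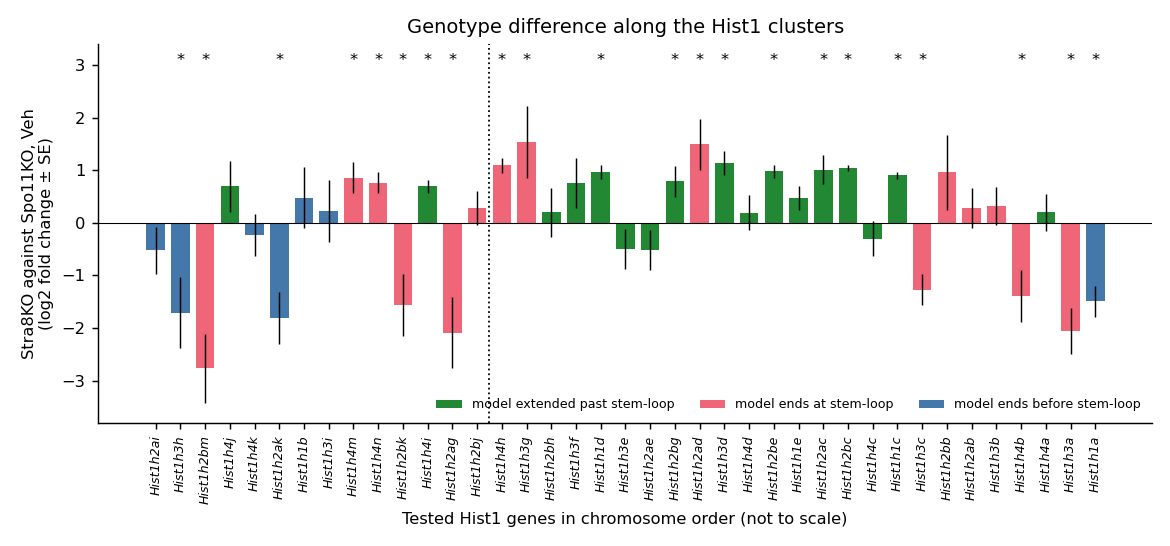
Log2 fold change of Stra8KO against Spo11KO in Veh (vertical axis, bars with SE) for the 39 tested Hist1 genes in chromosome order (horizontal axis, not to scale), coloured by gene model, with asterisks for called genes and a dotted line between the proximal and the distal stretch. Downward bars with an asterisk belong to models that end at or before the stem-loop and stand in both stretches.

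Position and promoter letters were counted in the same way. In Veh, 3 of the 14 tested members of the proximal stretch were called higher and 5 lower. In the distal stretch 10 and 4 of 25 were, and in Hist2 5 and 0 of 5. Of all tested genes 31.6% were called higher and 30.7% lower. Neighbours could differ in sign, as with Hist1h2bk and Hist1h2ag (lower) on either side of Hist1h4i (higher). Of the members with a promoter sequence, the octamer stood in 4 of 16 called higher and 2 of 8 called lower, and CCAAT in 12 of 16 and 7 of 8. The printed promoters of Hist1h2bg (higher, 0.79 ± 0.29 in Veh) and Hist1h2bm (lower) both hold the octamer. Hist1h2bg was also higher in NRRA, by 1.41 ± 0.28 (log2).

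Markers of both cell types moved with these genotype differences. Each of the 16 fibroblast markers passed the test, with its higher level in Stra8KO, in Veh and in NRRA, with medians of 0.96 in each and ranges of 0.48 to 1.55 and 0.78 to 1.08. All 8 germ cell markers were called lower in both media, with medians of -0.98 in each and ranges of -1.16 to -0.72 and -1.24 to -0.18. Macrophage markers numbered 5, of which 3 were called higher in Veh and 4 in NRRA, with summed levels of 51.2 to 61.7 CPM in Stra8KO and 33.9 to 40.0 CPM in Spo11KO. The markers of undifferentiated spermatogonia were 6 of 6 lower in Veh (median -1.27) and 6 of 6 higher in NRRA (median 1.24), and of the differentiating ones 4 and 5 of 5 were lower. Interstitial markers summed to 11.3 to 12.7 CPM in Stra8KO and 7.16 to 10.5 CPM in Spo11KO. The part of these cells in the histone differences was not tested.

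Genes of S phase, when replication-type histones are made, were lower in Stra8KO. All 18 S-phase genes (Pcna, the Mcm helicase genes and others) were called lower in both media, with medians of -0.99 in Veh and -0.70 in NRRA, and their summed level was 1403 to 1537 CPM in Stra8KO and 2386 to 3070 CPM in Spo11KO. With NRRA 14 were called lower and 1 higher in Spo11KO (median -0.33), and 6 lower and 2 higher in Stra8KO (median -0.08).

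Genes that process histone mRNA were mostly lower in Stra8KO. Of 14, 10 were called lower and 2 higher in each medium. Slbp, which encodes the stem-loop binding protein, had 65.7 and 66.1 CPM (Veh) and 59.9 and 55.3 CPM (NRRA) in Stra8KO, against 117 and 118 CPM (Veh) and 105 and 112 CPM (NRRA) in Spo11KO, with log2 values of -0.84 ± 0.05 and -0.92 ± 0.05. The genotypes did not overlap. Casp8ap2 (FLASH), a processing factor, had -0.91 ± 0.05 and -1.06 ± 0.05. Tut7, a uridylyl transferase, was higher in Stra8KO by 0.81 ± 0.05 and 0.95 ± 0.05, and Sympk, the scaffold of the cleavage complex, by 0.31 ± 0.04 and 0.24 ± 0.04.

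With NRRA 8 of these 14 genes were called lower and 1 higher in Stra8KO, and 7 lower and 1 higher in Spo11KO. Slbp fell by 0.20 ± 0.05 on the log2 scale in Stra8KO and by 0.11 ± 0.05 in Spo11KO (edgeR adjusted p = 0.0031 and 0.042). Sympk fell by 0.47 ± 0.04 and 0.40 ± 0.04, Srrt (ARS2) by 0.40 ± 0.04 and 0.37 ± 0.04, and Ncbp1, of the cap-binding complex, by 0.31 ± 0.05 and 0.32 ± 0.05. Cstf2, a cleavage factor, fell by 0.26 ± 0.06 and 0.34 ± 0.05. The gene called higher in Stra8KO was Zfp473 (0.59 ± 0.14), which encodes a partner of the U7 particle.

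Transcriptional regulators of histone genes were mostly lower in Stra8KO. Of 9, 8 were called lower and 1 higher in Stra8KO Veh, and 7 lower and 1 higher in Stra8KO NRRA. Npat, the cyclin E-CDK2 target that drives histone transcription, had 65.0 and 60.9 CPM in Stra8KO Veh and 104 and 108 CPM in Spo11KO Veh, with log2 values of -0.75 ± 0.05 in Veh and -0.73 ± 0.05 in NRRA. With NRRA it was not called in either genotype, at 0.05 ± 0.06 and 0.03 ± 0.05. Nfya, of the factor that binds CCAAT, fell with NRRA by 0.41 ± 0.05 in Stra8KO and by 0.74 ± 0.05 in Spo11KO, whereas Pou2f1, an octamer-binding factor, rose by 0.52 ± 0.05 in Spo11KO and had 0.12 ± 0.05, which was not called, in Stra8KO.

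Replication-independent histone variants, whose mRNAs are polyadenylated, were far more abundant than the clustered genes in these libraries. The 19 listed genes summed to 1014 to 1300 CPM, 2 of them had no count and 4 had at most 3 counts in every library, and 12 were tested. H3f3b (H3.3) had 330 and 337 CPM (Veh) and 300 and 297 CPM (NRRA) in Stra8KO, against 449 and 445 CPM (Veh) and 342 and 359 CPM (NRRA) in Spo11KO. It fell with NRRA by 0.16 ± 0.04 and 0.35 ± 0.04 (log2). H2afx stood at 34.6 to 39.5 CPM in all libraries and was called in no comparison.

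The linker variant H1f0 (H1.0), which is associated with arrested and differentiated cells, had 93.7 and 96.4 CPM (Veh) and 124 and 125 CPM (NRRA) in Stra8KO, against 100 and 94.4 CPM (Veh) and 91.8 and 90.4 CPM (NRRA) in Spo11KO. It was higher with NRRA in Stra8KO by 0.39 ± 0.05 (edgeR adjusted p = 9.3e-10) and had -0.09 ± 0.05 in Spo11KO. Of the macroH2A genes, H2afy had 0.54 ± 0.04 in Stra8KO and -0.43 ± 0.05 in Spo11KO and H2afy2 had 0.10 ± 0.07 and -1.74 ± 0.06. H2afj fell with NRRA by 0.71 ± 0.05 and 0.65 ± 0.06 and was higher in Stra8KO by 0.99 ± 0.06 in Veh. H2afz (H2A.Z) fell by 0.39 ± 0.06 and 0.49 ± 0.06 with NRRA. Cenpa, the centromeric H3, was lower in Stra8KO by 1.10 ± 0.06 in Veh and 1.04 ± 0.06 in NRRA on the log2 scale.

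Histone chaperones were given as counts over a list of 17. In Stra8KO against Spo11KO 14 were called lower and 0 higher in Veh, and 14 lower and 2 higher in NRRA, with medians of -0.41 and -0.34. With NRRA 8 were lower and 2 higher in Stra8KO and 10 lower and 1 higher in Spo11KO. The sets of S-phase, processing, transcription and chaperone genes thus had negative medians in Stra8KO in both media, while that of the clustered histone genes was positive.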

How the data were processed

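The authors deposited 1 table of raw counts, listed by Ensembl identifier as whole numbers, neither normalized nor pooled, with 1 column for each of the 8 libraries. Per the labels, bcl2fastq, STAR 2.6.1c, featureCounts 1.6.4 and mm10 were used. The annotation release, the strand setting and how reads with several matching places were counted were not given in the sources used here. Of the gene identifiers, 55240 (99.67%) were in GENCODE M21.

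The fits were made in R 4.3.3 by edgeR 4.0.16, on the 20588 genes (99.88% of counts) left by filterByExpr. Scaling used TMM, and a single model of 4 group means took in the 8 libraries, with dispersions estimated robustly for the quasi-likelihood test (common biological coefficient of variation 3.39%). The 5 contrasts were tested two-sided with Benjamini-Hochberg adjustment over all tested genes, and called means an adjusted p under 0.05. SEs were derived from the size of the log2 fold change and the root of F. The model was tested on simulated data. DESeq2 1.42.0, the tool of the study's own methods, served as an alternative.

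Libraries of a group differed by more than sampling noise (median chi-square per gene 0.741 to 0.973 where a pair had 20 counts or more, against 0.455) and were counted as separate samples. That check cannot tell separate cultures from repeated preparations of the same culture, so small p-values may rest on technical spread alone. Genes with few reads are limited at least by counting error, and no molecular identifiers were used. Correlations of same-numbered libraries' deviations from their group means ran from -0.027 to 0.056, so the numbers were not used as pairs.

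The members, gene lists and naming rule were chosen with earlier results of these data known. The text names the germline members, all H1 genes, the 4 highest tested genes per kb of each core class, the 6 largest called rises and falls of each contrast, up to 4 called genes of each histone list per contrast with Slbp, Npat, H2afx, H3f3b and H1f0, and Stra8 and Spo11. The alternatives were other scalings, other count filters, DESeq2, the 4 libraries of a contrast alone, a replicate block, stricter thresholds and leaving out each library.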

Additional observations from a re-analysis of the deposited data

Results flagged for a closer look

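No clustered histone gene was called for a different NRRA change in the 2 genotypes, and groups of 2 libraries were too small to look for a single library far from the others. Among the named genes of the histone-related lists, 13 were called by edgeR for the interaction, which is the log2 change with NRRA in Stra8KO minus that in Spo11KO.

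Among replication-independent variants the interaction was 1.83 for H2afy2 and 0.97 for H2afy, which encode macroH2A proteins, 0.52 for the linker variant H1fx, 0.49 for H1f0, 0.31 for H2afv and 0.19 for H3f3b. H2afy had 0.54 in Stra8KO and -0.43 in Spo11KO, and H1fx had 0.34 and -0.18, both called in opposite directions in the 2 genotypes.

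Among regulators of histone transcription it was 0.55 for E2f1, 0.33 for Nfya, -0.36 for Cdk2, -0.41 for Pou2f1 and -0.46 for Ccne2. Cdk2 and Ccne2, which encode the kinase and the cyclin that act on NPAT, had 0.24 and 0.31 in Spo11KO, both called, and -0.12 and -0.16 in Stra8KO, neither called. Among genes of the U7 particle and its partners it was 0.67 for Zfp473 and -0.41 for Lsm11. What lies behind these differences was not tested.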

How the results depend on the processing

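Among the single members recomputed under these alternatives, all called in the main fit, no direction reversed. Counts and medians were not scored for a reversal. Of the main counts and medians, 97 of 122 under other settings and 91 of 120 with 1 library left out stayed within the margin used. Single members kept their call in 211 of 237 and 230 of 280 cases. For a comparison of 2 groups, the left-out libraries include those of the other groups. Removing such a library affects only the scaling, filter and shared dispersion, so these tallies overstate how well calls hold. The calls of Hist1h1c with NRRA held without each library. With DESeq2 NRRA gave 1 member called higher in Stra8KO, and for Spo11KO 1 higher and 1 lower (median -0.25), and those lower in Stra8KO against Spo11KO were 5 in Veh (median 0.26) and 2 in NRRA. At an adjusted p under 0.01, 1 member was higher with NRRA in each genotype. Requiring a fold change of at least 2 left 0 higher and 0 lower with NRRA in Stra8KO, and 1 higher and 3 lower in Spo11KO. Between genotypes it left 9 higher and 9 lower in Veh, and 13 higher and 2 lower in NRRA. Shares of all tested genes at these stricter thresholds are not given here, so the counts cannot be set against a background. Scaling by library totals gave medians of -0.064 for NRRA in Spo11KO, 0.37 and 0.62 between genotypes in Veh and NRRA, and 0.22 for the interaction, whose calls over all genes went from 3051 higher and 2121 lower to 2188 and 3473. Without a filter on low counts the genotype medians were 0.26 in Veh and 0.76 in NRRA and 1 member had a higher interaction. A minimum mean of 10 counts gave 0.69 in Veh, and the 4 libraries of the contrast alone 0.76 in NRRA.

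With 1 library left out, members called with NRRA ranged from 1 to 4 higher and 0 to 1 lower in Stra8KO (median 0.023 to 0.29), and from 1 to 2 higher and 2 to 7 lower in Spo11KO (median -0.28 to -0.14). Between genotypes the medians ranged from 0.32 to 0.60 in Veh and 0.76 to 0.87 in NRRA, where 1 to 4 members were lower. The interaction had 0 to 2 higher, with medians of 0.20 to 0.43. Fewer calls in Stra8KO came without Veh replicate 1, NRRA replicate 1 or NRRA replicate 2 (higher) and without Veh replicate 2 or NRRA replicate 1 (lower), fewer in Spo11KO without Veh replicate 2, and fewer lower in NRRA without Stra8KO NRRA replicate 1 or Spo11KO NRRA replicate 2. Where 1 library was left in a group, it was assumed to vary like the others. Other than these values, the cause was not tested.

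With the replicate number as a block, the counts of members called were the same as without it: 4 higher and 1 lower, 2 and 6, 20 and 9, 24 and 4, and 0 and 0. Same-numbered libraries did not deviate together, so they share only a number. Depth limits the members with few counts.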
